A study of Mus musculus with 15 samples.

Results

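Microglia of 18-month-old mice given PLX5622 were compared with all untreated microglia of that age, whatever their autofluorescence gate. The comparison used 12 of the 15 libraries of the series, chosen by their labels: 4 PLX5622 libraries and 8 untreated old libraries, of which 5 were sorted for high autofluorescence (AF-high) and 3 for low autofluorescence (AF-low). PLX5622 is an inhibitor of the CSF1 receptor, and the question was what differs with the treatment in both gates alike. The remaining 3 libraries, of untreated 3-month-old mice (young), entered the estimate of the spread, the choice of genes tested and the other scalings. Their values are given for reference. All were brain microglia isolated by flow sorting, and RNA was sequenced after amplification of cDNA. Strain, sex, genotype, the dose and schedule of PLX5622, the sort markers and the gate of the PLX5622 libraries are not stated in the labels. Nor do these say whether the cells of the treated mice had survived the drug or had come back after it, or whether animals were pooled. The labels number biological replicates within each group, and a p-value here reflects the spread among these replicates only.

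Microglia are the resident macrophages of the brain parenchyma, and they depend on signals through CSF1R for survival. CSF1R is a receptor tyrosine kinase for CSF1 and IL-34, and it signals through adaptors such as GRB2 and through PI3-kinase and AKT. Inhibitors of the receptor deplete microglia, and microglia repopulate the brain when the drug is withdrawn. The transcription factors PU.1 (the product of Spi1) and RUNX1 act in the microglial lineage, and PU.1 binds the Csf1r promoter. Macrophages at the borders of the brain, in the meninges, the perivascular spaces and the choroid plexus, also respond to CSF1R inhibitors and are marked by Mrc1, Cd163 and Pf4. Autofluorescence of old microglia is generally put down to stored lysosomal material.

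Levels are in TPM, a unit of transcript abundance that is scaled for transcript length and for the library's total. The number of reads behind each library is unknown. The untreated old libraries scattered more than the treated ones: the root mean square deviation of a library from its group on the log2 scale was 0.364 to 0.560 in the untreated old libraries and 0.249 to 0.264 with PLX5622. Of 10 microglial markers all were measured and 0 passed the test, where 1.42% of all genes did. With 10 genes this count does not show that they were alike. Csf1r, 1 of the 10, lay below every untreated old library without being called. The summed level of the 10 markers was 8620 to 9271 TPM with PLX5622 and lay within the 6587 to 12010 TPM of the untreated old libraries. Numbered gene models (symbols of Gm and a number, most of them without a known function) held 19.7% ± 3.06 of all TPM with PLX5622 (SD, n = 4) and 10.7% ± 1.21 in untreated old microglia (SD, n = 8; exact permutation test, two-sided, adjusted p = 0.0182 over 9 tests of library measures). That share was also 20.4% in young 1. Because TPM has a fixed total, this share moves the values of all other genes together, and results are also given under other scalings.

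Of 13175 genes tested, 42 (0.319%) were higher and 145 (1.1%) lower with PLX5622 than in the 8 untreated old libraries (limma on log2(TPM + 1), Benjamini-Hochberg adjusted p under 0.05). A difference on this scale understates the change of genes with low values. A gene counts as called in both gates when it also differed in the same direction from AF-high alone and from AF-low alone, each at an unadjusted p under 0.05. By this rule 38 genes (0.288%) rose and 144 (1.09%) fell in both gates, 182 (1.38%) together. The other 5 of the 187 called genes (1.42%) did not meet it. The median difference was 1.26 for the genes that rose and -0.76 for those that fell, beside -0.03 over all genes tested. No overlap between the 4 treated and the 8 untreated libraries was seen for 35 of the 38 and 121 of the 144. Over all genes 0.941% lay wholly above and 2.32% wholly below. Both gate comparisons use the same 4 treated libraries. Against AF-high alone 21 genes (0.159%) were higher and 62 (0.471%) lower. Against AF-low alone 0 (0%) were higher and 19 (0.144%) lower. The gates themselves did not differ at this threshold for any gene (0 genes, 0%; limma, lowest adjusted p = 0.441). At an unadjusted p under 0.05 they differed for 1082 genes.

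**Figure D1:**
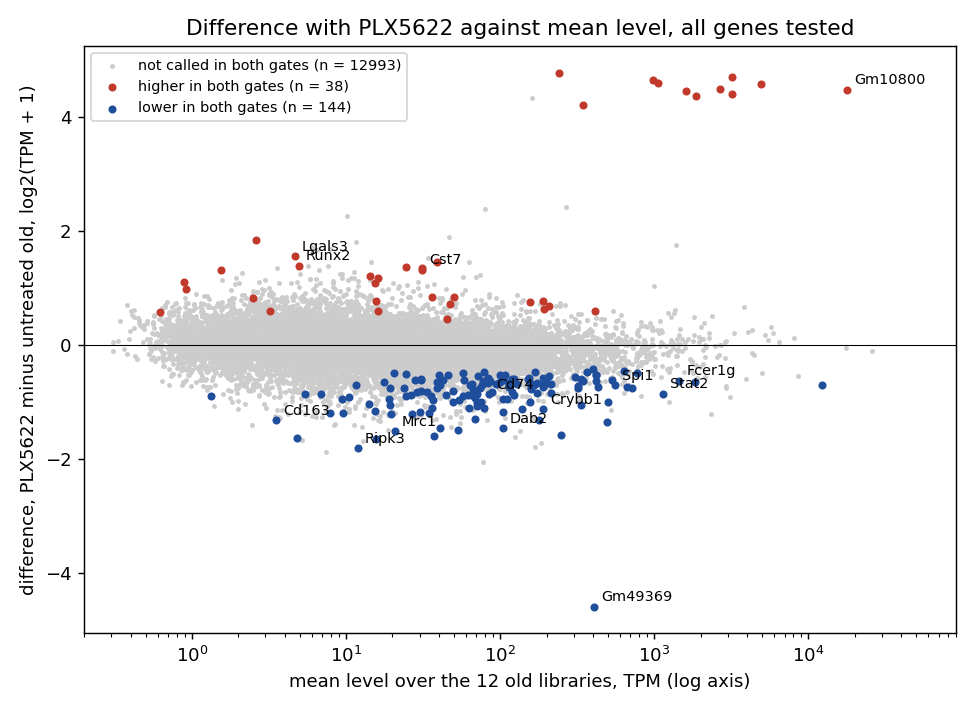
Difference between PLX5622 and untreated old microglia in log2(TPM + 1) (y axis) against the mean level over the 12 old libraries in TPM (x axis, log scale), 1 point per gene. Red points are the 38 genes that rose in both gates and blue points the 144 that fell; the group of red points above 4 on the y axis is made of numbered gene models, and Gm49369 is the lowest point.

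The balance of rises and falls depended on how libraries were scaled. With TPM as deposited 77.5% of the called genes were lower. This share was 66.7% with median-of-ratios scaling (37 higher and 74 lower), 48.4% with quantile normalization (63 and 59) and 39.8% with TPM rescaled without the numbered gene models (71 and 47). These scalings moved the median of all genes from -0.03 to 0.01, 0.01 and 0.09. Under all 4 scalings, 19 genes (0.144%) rose and 41 (0.311%) fell in both gates. The differences also followed base composition. Median transcript GC content was 41.2% for the genes that rose, 53.1% for those that fell and 49.1% for all genes, and the median difference ran from 0.10 in the lowest of 10 equal groups of genes by GC content to -0.19 in the highest. After values were centred within 20 bins of GC content in each library, 20 genes rose and 62 fell in both gates. Of the genes called in both gates under all 4 scalings, 13 that rose and 34 that fell were also called after this centring.

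**Figure D2:**
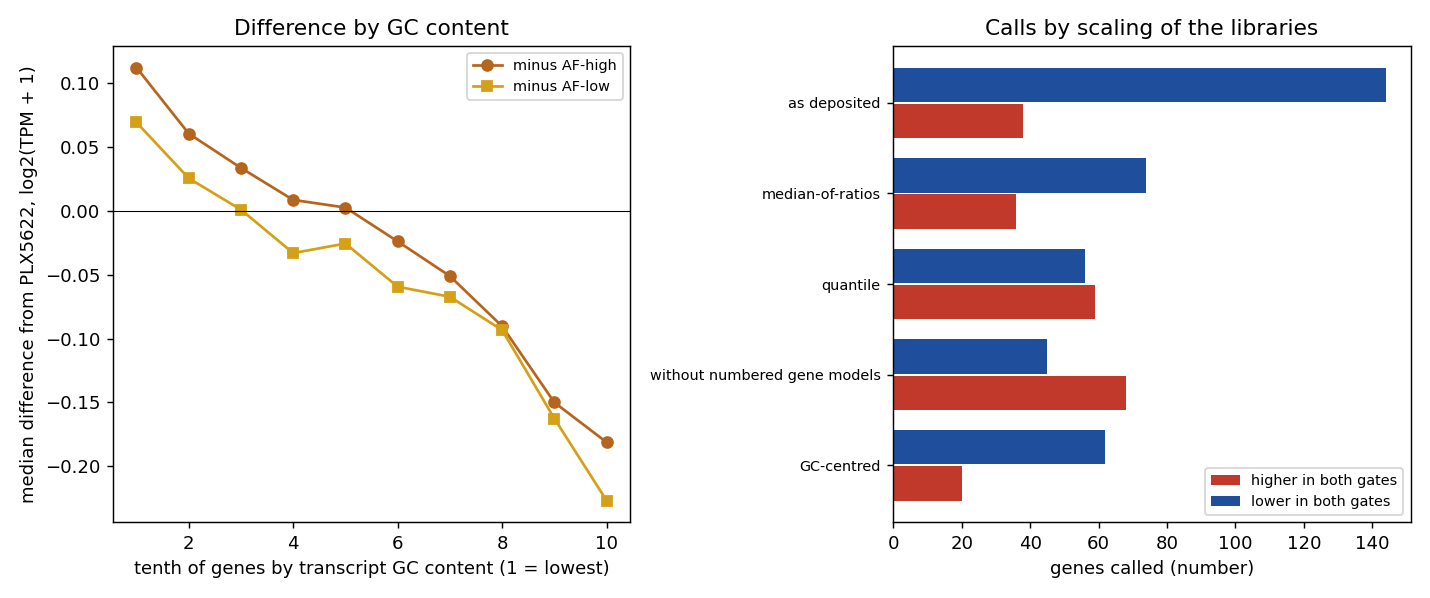
Left, median difference of PLX5622 from AF-high (circles) and from AF-low (squares) in log2(TPM + 1) for 10 equal groups of genes ordered by transcript GC content; both lines go down from left to right. Right, number of genes higher (red) and lower (blue) in both gates under each scaling; lower genes range from 45 to 144 and higher genes from 20 to 68.

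The counts rested on all 4 treated libraries. Without PLX5622 1, 2, 3 or 4 in turn, 1, 2, 1 and 10 genes rose and 4, 8, 3 and 43 fell in both gates. Leaving out an untreated old library gave 15 to 64 rises and 60 to 277 falls, the highest without AF-low 2 and the lowest without AF-low 3. The other untreated libraries whose absence moved a count past 1.5 times were AF-high 3 (261 falls), AF-high 4 (59 rises, against 38), AF-high 5 (18 rises and 67 falls) and AF-low 1 (92 falls). Without a young library, which changes the estimated spread and the choice of genes tested, 15 to 28 genes rose and 61 to 79 fell. With the spread estimated from the 12 old libraries alone, 1 gene rose and 9 fell, in both gates: Hdc was higher, and Mrc1, Pvr, Cd74, Crybb1, Adgre5, Pbx2, Atn1, Cd80 and Gm49037 were lower. In that fit Hdc passed the filter (1 TPM in 3 libraries) only through the treated libraries, since every untreated old library held less than 1 TPM. Its place there rests on the group where it was high. Allowing each group its own variance gave 109 rises and 418 falls.

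Several markers of border-associated macrophages fell with PLX5622. Of 22 such genes 20 were tested, and 5 fell in both gates (Mrc1, Cd163, Dab2, Pf4 and Stab1) where 1.09% of all genes did; 0 rose. Differences lay below 0 for 16 of the 20, against 54.4% of all genes. Their median difference was -0.66, against -0.03 for all genes, and it lay between -0.54 and -0.63 under the other scalings and after GC centring. The summed level of the list was 282 to 339 TPM with PLX5622, 431 to 554 TPM in AF-high and 588 to 709 TPM in AF-low, so the 3 ranges did not overlap. Most of this sum came from Stab1, Dab2 and Maf. Their means were 111.7, 43.14 and 53.45 TPM with PLX5622. In AF-high they were 184.1, 107.3 and 63.87 TPM, and in AF-low 172.9, 179.5 and 54.75 TPM. Maf was not called (-0.13), and the sums were not tested. In sorted bulk RNA, fewer border-associated macrophages in the sort and less RNA of these genes per cell cannot be told apart.

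Mrc1, which encodes the mannose receptor CD206 and is a standard marker of border-associated macrophages, had the smallest adjusted p of all genes. The gene lies on chromosome 2 at 14229392-14332057 (GRCm38). Its level was 7.20, 10.97, 6.33 and 10.51 TPM in PLX5622 1 to 4. AF-high libraries held 23.1, 22.9, 23.1, 21.4 and 25.8 TPM and AF-low libraries 28.9, 31.7 and 36.0 TPM. Every treated library lay below every untreated one, and among the untreated libraries the AF-low values lay above the AF-high values. The difference was -1.51 ± 0.15 (SE) with adjusted p = 0.000503, made up of -1.34 ± 0.16 against AF-high and -1.79 ± 0.19 against AF-low. Mrc1 was called under all 32 alternatives run, the replicate block among them. Here and below, counts of alternatives for a gene take the call against the 8 untreated libraries, without the rule for both gates. Young microglia held 17.9 TPM ± 0.925 (SD, n = 3), between the old groups.

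Cd163, a scavenger receptor for haemoglobin and haptoglobin (chromosome 6, 124304656-124330527), was low everywhere. It stood at 0.534, 2.40, 0.797 and 1.33 TPM with PLX5622, at 2.41 to 4.26 TPM in AF-high and at 6.11 to 7.19 TPM in AF-low. The highest treated library reached 2.40 TPM and the lowest untreated one 2.41 TPM, so the groups met without crossing. The difference was -1.32 ± 0.21 (adjusted p = 0.0154). Dab2, an endocytic adaptor, stood at 44.6, 35.7, 37.3 and 55.0 TPM with PLX5622. It was 154, 86.3, 63.3, 63.0 and 170 TPM in AF-high and 286, 97.5 and 155 TPM in AF-low. The groups did not overlap, which is part of how Dab2 was chosen, and the untreated libraries themselves spread widely. Its difference was -1.46 ± 0.30 (adjusted p = 0.0327).

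Pf4, the chemokine CXCL4, stood at 7.87, 20.7, 12.6 and 16.7 TPM with PLX5622 and at 12.3 to 84.7 TPM in untreated old microglia (median 53.6). The groups overlapped because AF-high 2 held only 12.3 TPM, and the call (-1.59 ± 0.35, adjusted p = 0.0443) was lost under each of the 3 other scalings. Stab1, the scavenger receptor stabilin-1, stood at 103 to 125 TPM with PLX5622 and 141 to 270 TPM in untreated old microglia, and its call (-0.66 ± 0.15, adjusted p = 0.0464) was likewise lost. Exons of Stab1 overlap those of Nt5dc2 on the other strand, and the labels do not say whether counting used strand. F13a1 (coagulation factor XIII) missed the threshold with a difference of -0.82 ± 0.20 (adjusted p = 0.0525). The markers Lyve1 (-0.66), Folr2 (0.09) and Siglec1 (0.07) did not pass the test.

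The bases upstream of Mrc1 and Cd163, the 2 border markers that were called under every scaling with the lowest adjusted p, are shown to set them beside each other, since Spi1 and Runx1 themselves fell. Both are the 250 bases before the start given by RefSeq on GRCm38.p6, 5′ to 3′ on the plus strand, at chr2:14229164-14229413 for Mrc1 and chr6:124304401-124304650 for Cd163. The Mrc1 window runs a little past the gene start given above, which is from GENCODE (14229392). Capitals mark a core of PU.1 and other ETS factors (AGGAAG, or CTTCCT on the other strand) and a RUNX core (TGTGGT, or ACCACA on the other strand). The motifs were chosen after the differences had been seen.
Mrc1: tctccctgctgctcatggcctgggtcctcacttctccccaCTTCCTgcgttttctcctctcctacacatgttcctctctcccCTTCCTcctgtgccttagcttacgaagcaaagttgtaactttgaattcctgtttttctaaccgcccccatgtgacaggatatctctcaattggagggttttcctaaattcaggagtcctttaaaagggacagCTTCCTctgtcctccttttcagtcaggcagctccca
Cd163: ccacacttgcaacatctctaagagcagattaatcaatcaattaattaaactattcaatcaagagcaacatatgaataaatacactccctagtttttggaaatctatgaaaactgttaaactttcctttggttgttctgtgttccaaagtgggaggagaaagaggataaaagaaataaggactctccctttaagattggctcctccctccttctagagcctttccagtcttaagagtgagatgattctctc
The Mrc1 window holds CTTCCT at 3 places, 210, 168 and 36 bases before the start, and the Cd163 window holds 0 matches. AGGAAG was in 29.2% of all 27025 RefSeq promoters of this length, in 28% of those of the genes tested and in 32.7% of the 110 available for genes that fell in both gates. TGTGGT was in 14.2%, 11.1% and 10% of these. A match is a description of the letters and not a site.

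**Figure D3:**
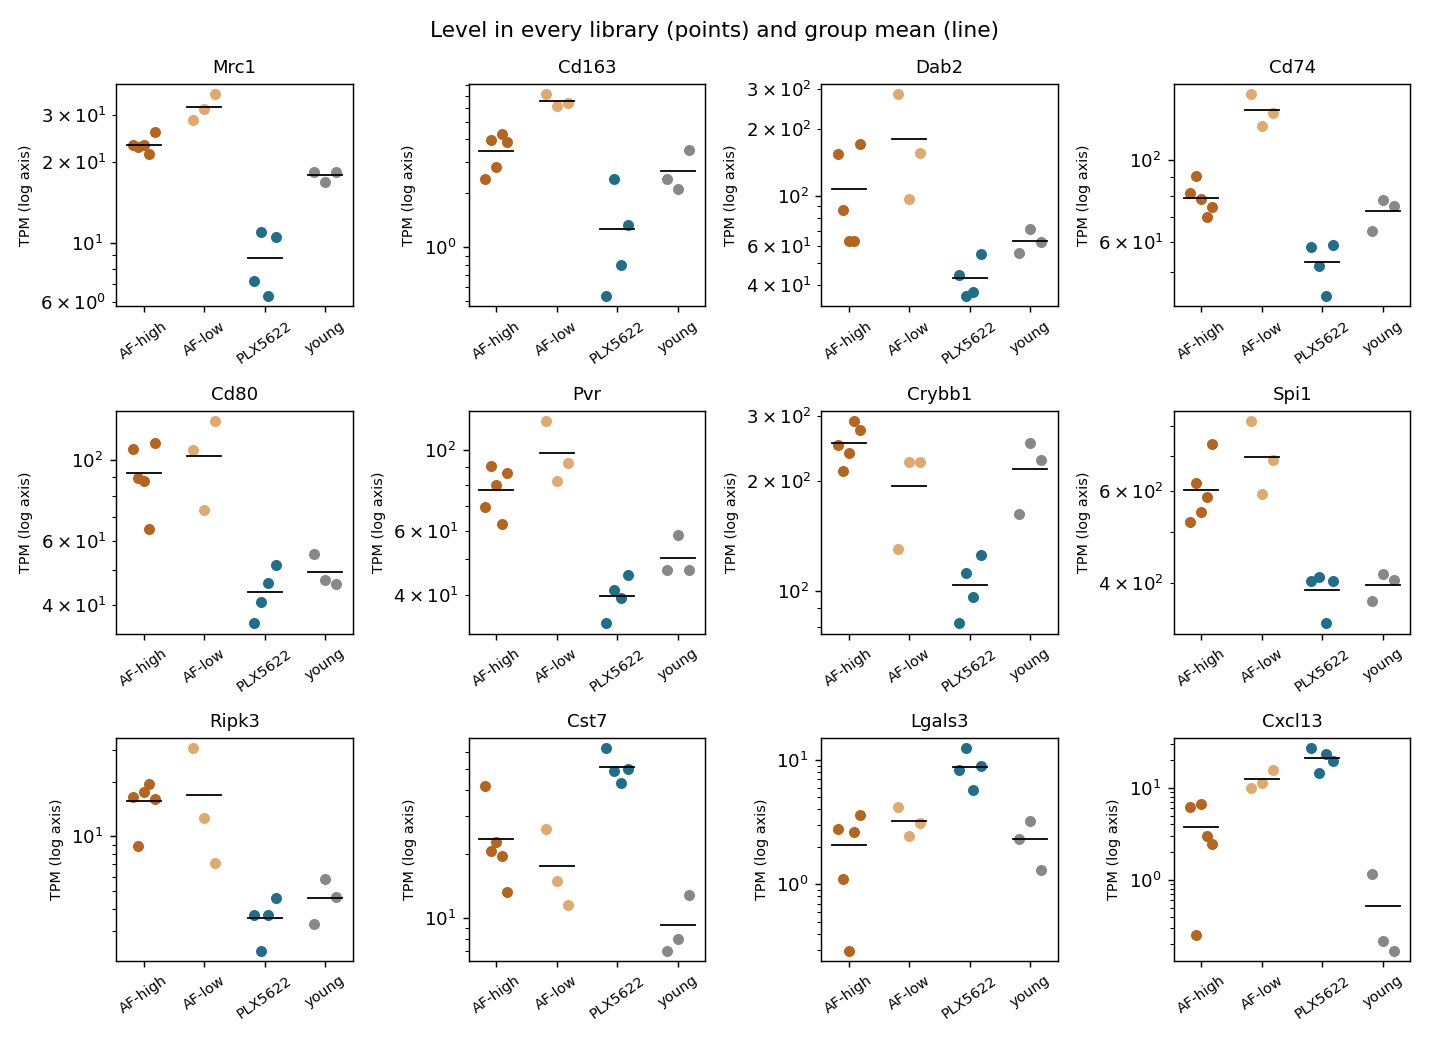
Level in TPM (log axis) of 12 genes in every library (points) with the group mean (line), for AF-high (n = 5), AF-low (n = 3), PLX5622 (n = 4) and young (n = 3). For Mrc1, Cd80, Pvr, Crybb1, Cd74, Spi1 and Ripk3 all 4 PLX5622 points lie below all untreated old points; for Cst7 and Lgals3 they lie above. Cxcl13 is the exception, since its highest AF-low point (15.8 TPM) lies above the lowest PLX5622 point (14.5 TPM).

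Genes of the CSF1 receptor pathway were lower or did not pass the test, and none rose. Of 20 tested members 4 fell in both gates (Spi1, Runx1, Akt1 and Grb2), where 1.09% of all genes did. Differences lay below 0 for 16 of 20, against 54.4% of all genes, with a median of -0.25. That median was -0.10 when TPM was rescaled without the numbered gene models. The receptor itself was not called. Csf1r stood at 967, 989, 906 and 1053 TPM with PLX5622, at 1077, 1818, 1391, 1367 and 1495 TPM in AF-high and at 1068, 1201 and 1188 TPM in AF-low. All treated libraries lay below all untreated ones, but the gap to the lowest untreated library was small, and the difference of -0.42 ± 0.12 had an adjusted p of 0.0932. Csf1, its ligand, also missed the threshold (176 TPM ± 60.2 against 270 TPM ± 60.3, difference -0.64 ± 0.20, adjusted p = 0.111), and PLX5622 4 held 266 TPM against 137 to 156 TPM in the other 3.

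Spi1, which encodes the myeloid master regulator PU.1 (chromosome 2, 91082390-91115756), stood at 404, 411, 334 and 403 TPM with PLX5622. It was 523, 623, 548, 585 and 740 TPM in AF-high and 818, 591 and 688 TPM in AF-low. The groups were clearly separated, and the difference was -0.71 ± 0.12 (adjusted p = 0.0154). The treated level, 388 TPM ± 36.0, was close to the 397 TPM ± 24.3 of young microglia. Spi1 was called under every scaling and in 27 of 32 alternatives.

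Runx1, a transcription factor of haematopoiesis, stood at 286 to 346 TPM with PLX5622 and 401 to 527 TPM in untreated old microglia (-0.52 ± 0.10, adjusted p = 0.0272). It was called under 1 of the 3 other scalings. Akt1, a kinase downstream of the receptor, stood at 16.9 to 26.1 TPM against 28 to 49.8 TPM (-0.82 ± 0.16, adjusted p = 0.0290), and Grb2 at 55.1 to 68.7 TPM against 71.3 to 135 TPM (-0.59 ± 0.13, adjusted p = 0.0443). Groups did not overlap for any of these 3 genes. Akt1 was called under 1 of the 3 other scalings and Grb2 under 0. Among 22 microglial lineage transcription factors, Spi1 and Runx1 were the 2 that fell (beside 1.09% of all genes). Sall1, a factor that keeps microglial identity, stood at 114 TPM ± 12.01 against 103 TPM ± 16.9 and was not called (0.16 ± 0.14, adjusted p = 0.612).

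Homeostatic genes of microglia had 1 call. Of 29 tested 1 fell in both gates, where 1.09% of all genes did, and the median was -0.08, or 0.07 when TPM was rescaled without the numbered gene models. The member that fell was Crybb1, a crystallin gene that microglia express. It stood at 81.9, 112, 96.5 and 126 TPM with PLX5622, at 250, 213, 239, 291 and 275 TPM in AF-high and at 131, 225 and 225 TPM in AF-low. Only AF-low 1, at 131 TPM, came near the treated libraries, and the groups did not overlap. Young microglia held 215 TPM ± 47.3 (SD, n = 3), near the untreated old mean of 231 TPM and not the treated mean of 104 TPM. The difference was -1.13 ± 0.17 (adjusted p = 0.0138), and Crybb1 was called in 30 of 32 alternatives. The purinergic receptor gene P2ry12 stood at 1941 TPM ± 161 against 1943 TPM ± 606 (0.05 ± 0.19). Tmem119 (0.19 ± 0.13) and the fractalkine receptor gene Cx3cr1 (-0.22 ± 0.13) also did not pass the test.

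Cd74 and Cd80, genes of antigen presentation and costimulation, fell in both gates. Cd74, the invariant chain that escorts MHC class II molecules, stood at 58.1, 51.8, 43.0 and 59.1 TPM with PLX5622. AF-high libraries held 81.6, 90.7, 78.6, 70.1 and 74.7 TPM and AF-low libraries 151, 123 and 134 TPM. Treated libraries were lowest, AF-high libraries intermediate and AF-low libraries highest, with no overlap between these 3 groups. The difference was -0.87 ± 0.12 (adjusted p = 0.00589), or -0.58 ± 0.13 against AF-high and -1.35 ± 0.14 against AF-low, and it was called in 31 of 32 alternatives. Of the 9 tested members of the MHC class II list Cd74 was the 1 called (1.09% of all genes fell in both gates); 4 of 9 lay below 0, and the list's median was 0.18 as deposited and -0.11 after quantile normalization. H2-Aa, a class II chain, ranged from 1.26 to 174 TPM within the untreated old libraries and was not called (-1.43 ± 0.81). None of 19 genes of MHC class I and peptide loading was called (0 of 19, beside 1.42% of all genes, median -0.08). H2-Q7 (-0.56, adjusted p = 0.102) and H2-M3 (0.52, adjusted p = 0.109) had the smallest p.

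Cd80, a ligand of CD28 and CTLA4 on T cells (chromosome 16, 38455561-38496335), stood at 35.6, 40.9, 46.0 and 51.5 TPM with PLX5622. It was 107, 89.3, 87.8, 64.6 and 111 TPM in AF-high and 107, 73.1 and 128 TPM in AF-low. The treated level of 43.5 TPM ± 6.81 was below every untreated old library and near the 49.3 TPM ± 5.24 of young microglia. The difference was -1.11 ± 0.17 (adjusted p = 0.0138). Pvr, the poliovirus receptor CD155 and a ligand of the T and NK cell receptors DNAM-1 and TIGIT, was named after its values had been seen. It stood at 33.4 to 45.4 TPM with PLX5622 and 62.6 to 120 TPM in untreated old microglia (-1.07 ± 0.14, adjusted p = 0.00549).

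Genes of innate sensing and inflammation had falls and no rise in both gates. Of 50 inflammatory cytokine and NF-kappaB genes tested, 3 fell in both gates (Cd80, Cxcl2 and Tlr4), where 1.09% of all genes did. Differences lay below 0 for 38 of 50, against 54.4% of all genes, and the median was -0.22, or -0.08 when TPM was rescaled without the numbered gene models. Tlr4, the lipopolysaccharide receptor, stood at 67.4, 64.0, 73.8 and 76.7 TPM with PLX5622 and 82.1 to 149 TPM in untreated old microglia (median 106). The groups did not overlap, and the difference was -0.66 ± 0.15 (adjusted p = 0.0495). Cxcl2, a chemokine for neutrophils, stood at 27.9, 34.4, 27.5 and 45.8 TPM with PLX5622 and 43.5 to 120 TPM in untreated old microglia. PLX5622 4 overlapped with AF-high 2 and AF-high 3, and the difference was -1.10 ± 0.26 (adjusted p = 0.0464). Neither gene was called under any of the 3 other scalings. Ticam1, the TLR adaptor TRIF (-0.90 ± 0.17), and Irak2, a kinase of the interleukin-1 receptor and TLR pathways (-0.95 ± 0.19), also fell in both gates; both were picked after their values had been seen.

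Cxcl13, a B cell chemokine, was called against the 8 libraries together but not in both gates. It stood at 27.0, 14.5, 23.4 and 19.5 TPM with PLX5622, at 6.20, 0.252, 6.71, 3.03 and 2.43 TPM in AF-high and at 10.1, 11.2 and 15.8 TPM in AF-low. All treated libraries lay above all AF-high libraries, while AF-low 3 lay above PLX5622 2. It was higher over the 8 untreated libraries (1.80 ± 0.39, adjusted p = 0.0415), with 2.45 ± 0.43 against AF-high and 0.72 ± 0.49 against AF-low. Against the 8 libraries it was called under each of the 3 other scalings (adjusted p = 0.0434, 0.0366 and 0.0405) and in 18 of 32 alternatives, and under 0 of these scalings was it called in both gates. A difference between AF-high and AF-low did not pass the test (adjusted p = 0.471).

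Ripk3, the kinase that triggers necroptosis (chromosome 14, 55784995-55788865), had the largest fall among the genes chosen by size and separation. It stood at 3.69, 2.35, 3.68 and 4.57 TPM with PLX5622. AF-high libraries held 16.6, 8.79, 17.6, 19.5 and 16.0 TPM and AF-low libraries 30.6, 12.7 and 7.13 TPM. No untreated old library came below 7.13 TPM, and the treated level of 3.57 TPM ± 0.913 lay beside the 4.58 TPM ± 1.27 of young microglia. The difference was -1.81 ± 0.30 (adjusted p = 0.0173), and Ripk3 was called in 27 of 32 alternatives.

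The interferon response had 1 call. Of 55 genes tested, Stat2 alone fell in both gates, a share near the 1.09% of all genes; 32 lay above 0 and the median was 0.08. Stat2, a transcription factor of the type I interferon response, stood at 649, 837, 624 and 828 TPM with PLX5622 and 970 to 1777 TPM in untreated old microglia (median 1287). The groups did not overlap, and the difference was -0.86 ± 0.15 (adjusted p = 0.0187). The summed level of the list was 3238 to 3602 TPM with PLX5622, below the 3653 to 4332 TPM of AF-high and the 3731 to 4336 TPM of AF-low, although its median difference was above 0. Stat2 by itself went from a mean of 1338 TPM to one of 735 TPM, which is about the size of the gap between these sums, and the sums were not tested. Tgtp2, an interferon-induced GTPase outside the list, rose instead. It stood at 18.6 to 25.4 TPM with PLX5622 and 5.29 to 18.2 TPM in untreated old microglia (1.21 ± 0.25, adjusted p = 0.0367). A near-identical copy of Tgtp2 exists, so reads may have been shared and its value is uncertain. Ifnar1, a chain of the type I interferon receptor picked after its values had been seen, fell (-1.0 ± 0.23, adjusted p = 0.0450).

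Among phagocytosis and scavenging genes 3 of 31 fell in both gates, where 1.09% of all genes did, with a median of -0.17. Mrc1 and Stab1 are described above. The third was Fcer1g, the signalling chain shared by Fc receptors, at 939, 1146, 972 and 1172 TPM with PLX5622 and 1473 to 2023 TPM in untreated old microglia (median 1556). The treated libraries lay well below the lowest untreated one and near the 1043 TPM ± 24.4 of young microglia. The difference was -0.63 ± 0.10 (adjusted p = 0.0154). Complement had 1 fall in both gates among 16 tested genes (beside 1.09% of all genes): C4b, the mouse C4 component, stood at 3.09 to 4.19 TPM with PLX5622 and 6.10 to 17.1 TPM in untreated old microglia (-1.19 ± 0.25, adjusted p = 0.0363). C4b was called under the 3 other scalings but not after GC centring (limma, adjusted p = 0.0565). The complement list then held 0 calls, with a median of -0.04 in place of -0.21. Cd209a, a C-type lectin of dendritic cells and macrophages, stood at 0.156, 2.11, 1.61 and 1.79 TPM with PLX5622 and 2.26 to 10.6 TPM in untreated old microglia (-1.62 ± 0.31, adjusted p = 0.0272).

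With TPM as deposited fewer genes rose than fell. Under quantile normalization 59 rose and 56 fell in both gates, and without the numbered gene models 68 and 45. With this last scaling, genes higher over the 8 untreated libraries appeared in the lists of lysosome (1), inflammatory cytokines and NF-kappaB (2) and phagocytosis (1). As deposited, the only list with a rise in both gates was that of disease-associated microglia. Of its 31 tested members 2 rose in both gates (Lgals3 and Cst7), where 0.288% of all genes did; 21 lay above 0 and the median was 0.19, from 0.21 to 0.34 under the other scalings and GC centring. Cst7 encodes cystatin F, an inhibitor of lysosomal cathepsins. It stood at 62.7, 48.9, 43.0 and 49.8 TPM with PLX5622, at 41.6, 20.7, 22.7, 19.5 and 13.3 TPM in AF-high and at 26.03, 14.9 and 11.5 TPM in AF-low. AF-high 1 came close to the lowest treated library, and all others were far below. The difference was 1.31 ± 0.27 (adjusted p = 0.0310). Young microglia held 9.31 TPM ± 3.12, so the treated level was the highest of the 4 groups.

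Lgals3, the galectin that binds beta-galactosides and coats damaged lysosomes, stood at 8.26, 12.5, 5.76 and 8.88 TPM with PLX5622. It was 2.81, 1.10, 0.294, 2.63 and 3.63 TPM in AF-high and 4.19, 2.45 and 3.12 TPM in AF-low. All untreated libraries lay below the lowest treated one. The difference was 1.55 ± 0.31 (adjusted p = 0.0312). Both genes were called under all scalings and in 25 of 32 alternatives. Other members of the list did not pass: Apoe (0.29 ± 0.29, adjusted p = 0.658), Trem2 (0.16 ± 0.18), Spp1 (0.60 ± 0.34, adjusted p = 0.404) and the lysosomal membrane gene Cd68 (-0.37 ± 0.14, adjusted p = 0.185).

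The bases before the RefSeq start of these 2 genes are shown beside those of the border markers, by the same marking, on GRCm38.p6 and the plus strand: chr2:150570165-150570414 for Cst7 and chr14:47373610-47373859 for Lgals3. The RefSeq start of Lgals3 lies inside the gene as given by GENCODE M21 (chromosome 14, 47367751-47386160), so its window lies inside the gene too.
Cst7: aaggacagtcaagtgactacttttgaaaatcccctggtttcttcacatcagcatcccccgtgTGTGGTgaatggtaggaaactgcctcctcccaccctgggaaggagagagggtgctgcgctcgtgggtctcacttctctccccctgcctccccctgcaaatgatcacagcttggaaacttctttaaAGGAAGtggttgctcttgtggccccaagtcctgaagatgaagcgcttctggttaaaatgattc
Lgals3: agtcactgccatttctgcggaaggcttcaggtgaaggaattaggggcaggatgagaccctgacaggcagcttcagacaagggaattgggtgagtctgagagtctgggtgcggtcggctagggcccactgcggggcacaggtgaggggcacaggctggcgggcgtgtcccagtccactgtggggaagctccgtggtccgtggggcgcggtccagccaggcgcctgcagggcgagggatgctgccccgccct
Cst7 holds TGTGGT 188 bases and AGGAAG 63 bases before the start, and the Lgals3 window holds 0 matches. Of the 19 promoters available for genes that rose in both gates, 36.8% held AGGAAG and 15.8% held TGTGGT.

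The other rises were of mixed function. Runx2, a transcription factor of bone formation that plasmacytoid dendritic cells also use, stood at 6.96, 11.03, 11.99 and 6.23 TPM with PLX5622 and 1.81 to 5.496 TPM in untreated old microglia (1.39 ± 0.28, adjusted p = 0.0290). The groups did not overlap, which is part of how Runx2 was chosen, and the treated level was near the 8.03 TPM ± 3.59 of young microglia. St8sia6, a sialyltransferase, stood at 56.6, 37.6, 35.4 and 35.4 TPM against 7.49 to 29.7 TPM (1.37 ± 0.27, adjusted p = 0.0290). Young microglia held 10.2 TPM ± 0.984 of it, so treated microglia were above both the untreated old and the young group.

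Further rises among the 15 largest were Dnajc28 (1.17), the RNA-binding protein gene Nova1 (1.08), Cebpzos (0.84), Olfr509 (0.77), Otulinl (0.75), the C-type lectin gene Clec4a3 (0.72), Commd8 (0.67), the SLAM receptor gene Ly9 (0.60) and the chloride cotransporter gene Slc12a2 (0.45). Their adjusted p ran from 0.0201 for Olfr509 to 0.0488 for Ly9. This and the absence of overlap are part of how they were chosen. Nova1, Otulinl, Clec4a3, Commd8, Ly9 and Slc12a2 were not called after GC centring, and Ly9 was called under 2 of the 3 other scalings. With 1 library left out at a time (15 fits), calls of these genes against the 8 untreated libraries held in 4 (Commd8, Ly9) to 6 fits (Clec4a3). The treated means of Otulinl (210 TPM) and Clec4a3 (63.8 TPM) were near the young means (225 and 64.6 TPM), and those of Ly9 (20.9 TPM) were not (9.08 TPM). Exons of Cebpzos overlap Cebpz, and those of Runx2 overlap Runx2os1, on the opposite strand. Hdc, the enzyme that makes histamine, was named after its values had been seen. It stood at 1.56, 2.22, 2.04 and 1.86 TPM with PLX5622 and 0.106 to 0.822 TPM in untreated old microglia (1.10 ± 0.14, adjusted p = 0.00549), and it was called in 30 of 31 alternatives. Its level is near the lower limit of the table, and the reads behind it are unknown. No untreated old library reached 1 TPM, so among the 12 old libraries Hdc passed the filter only through the treated ones.

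The remaining large falls were spread over surface, signalling and nuclear proteins. Adgre5, the adhesion receptor CD97, stood at 3.95, 5.22, 4.36 and 10.7 TPM with PLX5622. It was 24.2, 23.9, 23.4, 12.1 and 20.9 TPM in AF-high and 20.8, 22.5 and 14.7 TPM in AF-low. The groups came close where PLX5622 4 was high and AF-high 4 was low, without crossing. The difference was -1.65 ± 0.25 (adjusted p = 0.0138). Exons of Adgre5 overlap those of Ddx39 on the other strand.

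Emp3, a small membrane protein of leukocytes, stood at 75.9 to 93.1 TPM with PLX5622 against 118 to 383 TPM (-1.32 ± 0.24, adjusted p = 0.0199). Pbx2, a homeobox transcription factor, stood at 7.38 to 9.28 TPM against 13.7 to 23.2 TPM (-1.15 ± 0.18, adjusted p = 0.0138), and its exons overlap those of Gpsm3. Atn1, a transcriptional corepressor, stood at 8.29 to 11.9 TPM against 16.1 to 34.3 TPM (-1.21 ± 0.19, adjusted p = 0.0138). These 3 genes were called under every scaling. B4galt5, a galactosyltransferase (-1.29), AL607107.2 (-1.35), Dcaf1, a ubiquitin ligase receptor (-1.13), Tyw5 (-1.22), the stress kinase gene Mapk12 (-1.19) and the chaperone gene Dnajb5 (-1.18) complete the 15 largest falls. Of these Tyw5, Mapk12 and Dnajb5 were called under 0 of the 3 other scalings. The exons of Tyw5 overlap Maip1 and those of Dcaf1 overlap Manf and Rbm15b on the other strand.

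**Figure D4:**
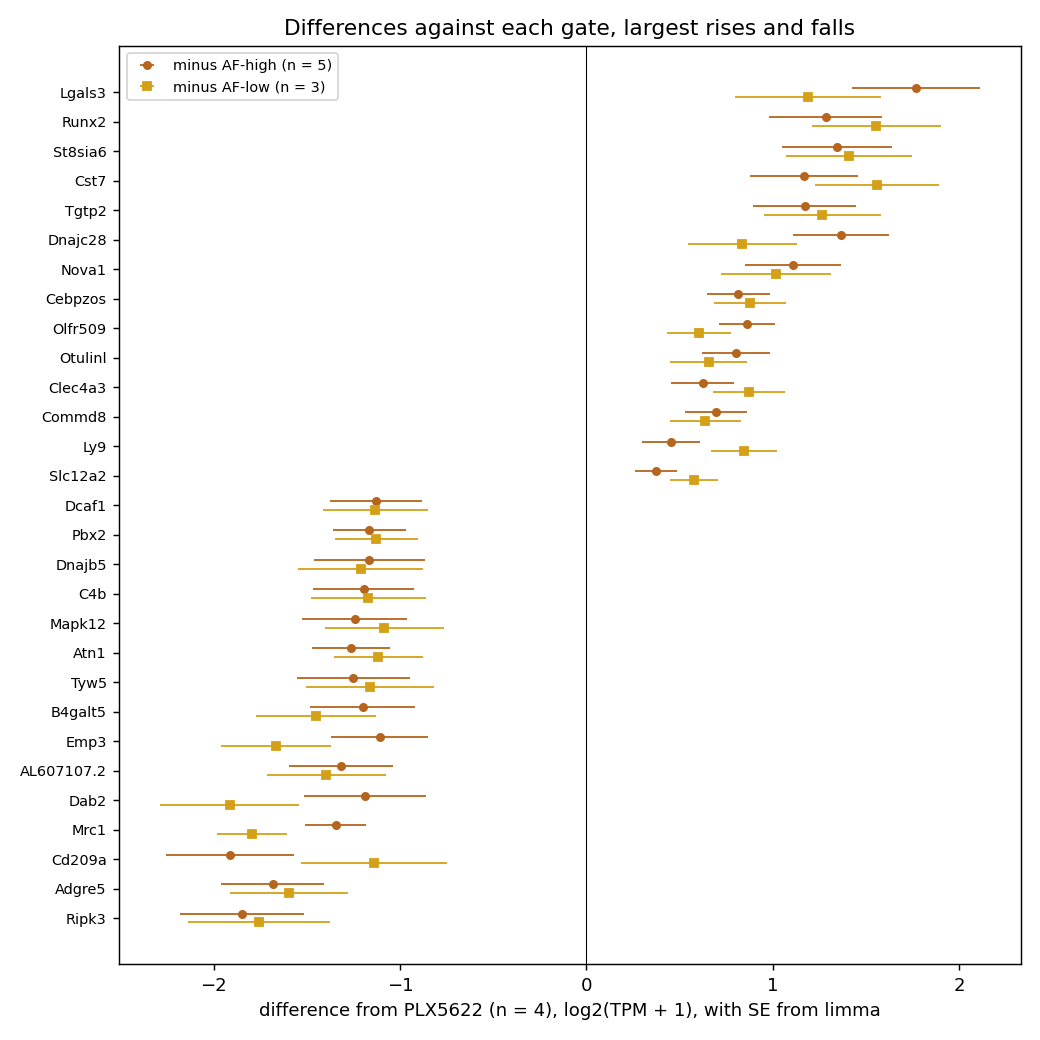
Difference of PLX5622 (n = 4) from AF-high (circles, n = 5) and from AF-low (squares, n = 3) in log2(TPM + 1) with SE from limma, for genes among the 15 largest rises and 15 largest falls chosen by size and separation. Only genes called in both gates were taken, so all points of a gene lie on one side of 0 by the rule of choice. The distance between circle and square is largest for Cd209a (-1.91 and -1.14) and Dab2 (-1.19 and -1.91).

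Among genes called in both gates, 0 also differed between AF-high and AF-low after adjustment over all genes. This does not show that the difference had the same size in both gates. As values without a passed test of the difference, falls were larger against AF-low for 4 of the 5 called border markers (Mrc1, Cd163, Dab2 and Pf4) and for Cd74 and Emp3. They were larger against AF-high for the remaining border marker Stab1 (-0.69 and -0.62 against AF-low), Cd209a and Crybb1 (-1.29 ± 0.19 and -0.86 ± 0.21). Ripk3 (-1.85 and -1.76), Adgre5 (-1.68 and -1.60) and Pbx2 (-1.16 and -1.13) differed from both gates by nearly the same amount.

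Lists linked to stored material and to stress gave no calls, where 1.42% of all genes were called. At that share a list of this size holds few calls or none, so 0 calls do not set these lists apart. The chaperone gene Dnajb5, which fell, is in none of them. With TPM rescaled without the numbered gene models, 1 lysosomal gene was called higher over the 8 untreated libraries. Of 50 lysosomal genes 0 were called, with a median of -0.01; Psap, the precursor of the saposins that help sphingolipid hydrolases (-0.51, adjusted p = 0.0539) and Tpp1, a lysosomal peptidase (-0.48, adjusted p = 0.0521), had the smallest p. The lists of autophagy (35 tested, median 0.00), cholesterol and lipid handling (29, -0.02), glycolysis (21, -0.03), cell cycle and replication (39, -0.04), heat shock and chaperones (24, -0.11), oxidative stress and NRF2 (33, -0.10) and senescence and p53 (21, 0.11) likewise had 0 calls. In these lists Mt2, a metallothionein (-0.90, adjusted p = 0.0580), Nfe2l2, the factor NRF2 itself (-0.47, adjusted p = 0.0776), and Cdkn1a, the cell cycle inhibitor p21 (-0.85, adjusted p = 0.127), had the smallest or second smallest p of their lists. The others with the smallest p were Btg2 (0.57), Map1lc3a (-0.49), Gabarap (-0.36), Nceh1 (0.86), Dhcr7 (0.36), Ldha (-0.35), Gapdh (-0.38), Ccnd3 (-0.58), Gins2 (-0.68), Hsp90aa1 (-0.30) and Bag3 (-0.46), with adjusted p from 0.0560 for Map1lc3a to 0.251 for Bag3. None of these differences was past the threshold, which at this number of libraries does not show that the genes were alike.

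Immediate early genes had 2 falls in both gates among 28, where 1.09% of all genes fell. Fosl2, an AP-1 subunit, stood at 81.5 to 103 TPM with PLX5622 and 119 to 171 TPM in untreated old microglia (-0.60 ± 0.11, adjusted p = 0.0187). Jund, another AP-1 subunit, stood at 42.0 to 57.6 TPM against 58.4 to 96.1 TPM (-0.68 ± 0.15, adjusted p = 0.0450), and was called under 0 of the 3 other scalings. The young means were 100 TPM for Fosl2 and 84.6 TPM for Jund.

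Genes of mitochondrial respiration had 2 calls, both falls. Nuclear genes of oxidative phosphorylation had 2 falls in both gates among 44 (beside 1.09% of all genes), the cytochrome oxidase subunits Cox6b1 (-0.70 ± 0.16) and Cox7a2 (-0.62 ± 0.13); 34 lay below 0, against 54.4% of all genes, and the median was -0.19, or -0.04 when TPM was rescaled without the numbered gene models. None of the 13 mitochondrially encoded genes was called, where 1.42% of all genes were. All 13 lay below 0 with a median of -0.63, led by mt-Atp6 (-1.0, adjusted p = 0.106) and mt-Nd1 (-0.92, adjusted p = 0.123). Mitochondrial transcripts held 2.00% ± 0.337 of TPM with PLX5622 and 3.49% ± 1.97 in untreated old microglia (two-sided exact permutation test, p = 0.0950, and 0.147 after adjustment). AF-high 2 and AF-high 3 stood apart at 5.38% and 7.66%, and the part of this share in the differences was not tested.

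**Figure D5:**
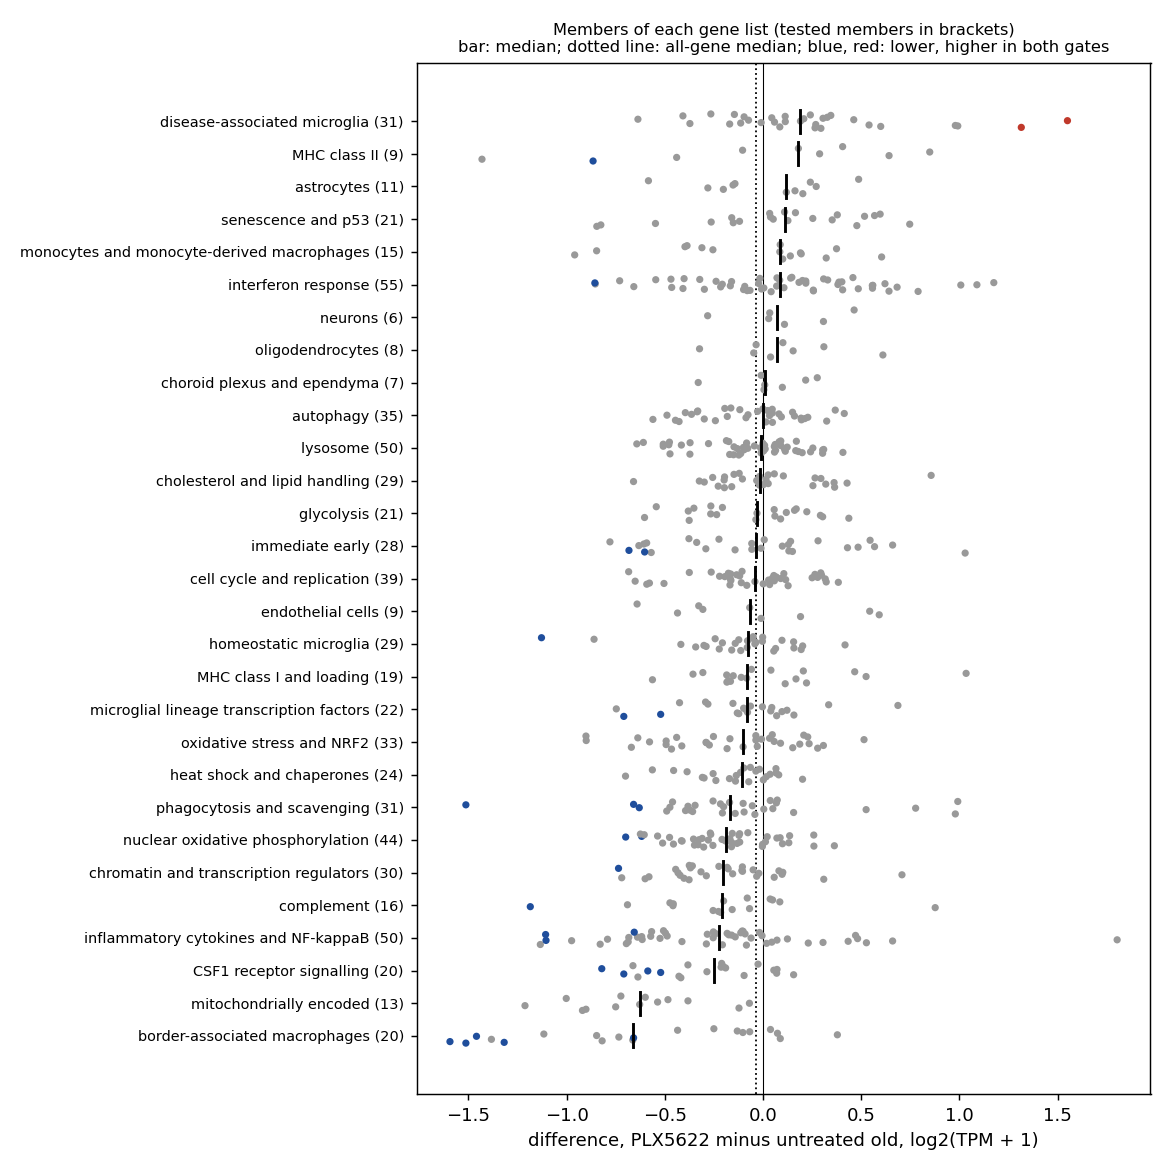
Difference between PLX5622 and untreated old microglia in log2(TPM + 1) for the tested members (points) of each gene list with at least 5 of them; black bars are list medians, the dotted line is the median of all genes (-0.03), and blue or red points are genes lower or higher in both gates. Border-associated macrophages (-0.66) and mitochondrially encoded genes (-0.63) have the lowest medians, and disease-associated microglia (0.19) the highest.

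Markers of other cells that a brain sort can hold had 0 calls outside the border-associated macrophages, where 1.42% of all genes were called. With so few markers per list, 0 calls do not show that the amounts of these cells were alike. Monocyte and macrophage markers (15 tested) had a median of 0.09, with summed levels of 599 to 807 TPM in PLX5622, 471 to 913 TPM in AF-high and 633 to 674 TPM in AF-low; Lyz2 (528 against 469 TPM), Fn1 and Tgfbi were the most abundant. Astrocytes (11 tested, median 0.12), oligodendrocytes (8, 0.07), neurons (6, 0.07), endothelial cells (9, -0.07) and choroid plexus (7, 0.01) showed summed ranges that overlapped between PLX5622 and untreated old microglia. For neutrophils, T and NK cells and B cells 4 markers each were tested, for pericytes 2 and for erythroid cells 1, and 0 were called. Against AF-low alone, summed astrocyte markers did not overlap (430.5 to 584.3 TPM with PLX5622, 623.6 to 683 TPM in AF-low). Nor did those of B cells (211.9 to 270.5 TPM and 274.1 to 349.1 TPM). The astrocyte marker Glul missed the threshold (-0.58 ± 0.15, adjusted p = 0.0588). The sums were not tested. The most abundant markers outside the monocyte list included Csf3r (239 against 281 TPM), Ighm (162 against 215 TPM), Trf (799 against 846 TPM), Glul (386 against 577 TPM), Bsg (135 against 172 TPM) and Ttr (140 against 184 TPM). Young 1, 2 and 3 held 7770, 5084 and 176 TPM of the choroid plexus marker Ttr. These libraries enter the estimate of the spread. The difference of Ttr was 0.005 ± 0.87 (SE), so only a large difference of it could have passed the test.

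The largest differences in size belonged to numbered gene models, which make up 15 of the 38 genes that rose and 6 of the 144 that fell. Gm10800 stood at 45380, 37620, 65000 and 32830 TPM with PLX5622 and 164 to 9424 TPM in untreated old microglia (4.47 ± 1.03, adjusted p = 0.0456). Young 1 held 50760 TPM of it, so a high value was not particular to treated libraries. Gm49369 moved the other way, at 7.68, 8.15, 12.6 and 12.2 TPM with PLX5622 and 19.6 to 2065 TPM in untreated old microglia (-4.58 ± 0.92, adjusted p = 0.0303), with 3.80 to 9.39 TPM in young microglia. Its exons overlap those of the cathepsin gene Ctsd and of Ifitm10 on the same strand, so reads of these genes cannot be told apart from its own. Both models were named after their values had been seen.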

How the data were processed

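Per the labels' protocols, sorted microglia were kept in RNAprotect, RNA was purified on RNeasy columns and cDNA was amplified with an Ovation RNA-seq kit before low-input library preparation. Per the submitters' processing notes, the tools included FastQC 0.11.8, Salmon 1.0.0 and DESeq2 (no version given), with build GRCm38 (mm10). The authors deposited 1 table of TPM values, 13834 genes by 15 libraries. How it was filtered and whether counting used strand are not stated. Column names match the labels' descriptions 1 to 1. Totals were 956489 to 963145 TPM, 0 values equal 0, 0 pairs of libraries are identical, and 19 symbols had turned into dates. TPM keeps no read depth, so no counting error could be given and no count-based test was run.

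Genes with at least 1 TPM in at least 3 libraries (13175) were taken as log2(TPM + 1) and fitted in limma 3.58.1 (R 4.3.3) with 1 mean per group over all 15 libraries and a trended prior (degrees of freedom: 11 residual, 4.15 prior at the median). The contrast weights each of the 8 untreated old libraries equally. Tests were two-sided, with Benjamini-Hochberg adjustment over all genes. Every adjusted p of a gene is from this model unless another setting is named. The script was tested on simulated data. Figures were drawn with matplotlib 3.10.9.

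The largest rises and falls are the 15 in each direction among genes called in both gates, with no overlap between treated and untreated old libraries and, in whichever group was higher, a mean of 5 TPM or more. Numbered gene models, pseudogenes, dates, mitochondrial and ribosomal genes were passed over. For these genes the absence of overlap and the same direction in both gates are part of how they were chosen. From 34 gene lists (22 pathways and 12 of cell markers) the members called in both gates are named, up to 6, or otherwise the 2 with the smallest p. For cell markers the most abundant are named, and 12 genes of microglial identity and activation are given always. Some items that this rule names are not reported here. Genes outside this rule are said to have been picked after their values were seen. The comparison, the lists and the rule were chosen with earlier results of these data known. Lists are described by counts and medians and were not tested. Coordinates are from GENCODE M21, which holds 13752 of the symbols, and promoters from RefSeq. Alternatives were other pseudocounts, filters, scalings, weights, priors and sets of libraries, each library left out in turn, the replicate number as a block, and, chosen after seeing the data, centring by GC content. A count of alternatives for a gene refers to the call against the 8 untreated libraries only. A gene called under a scaling or after GC centring met the rule for both gates there, unless said otherwise.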

Additional observations from a re-analysis of the deposited data

Results flagged for a closer look

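Of 234 sets of values tested (named genes in the 5 AF-high and in the 4 PLX5622 libraries), 19 held a library that stood apart from the rest of its group by Dixon's criterion, where chance alone would give about 1 in 20. Most of the outlying values in untreated microglia lay in AF-high 2 and AF-high 1. AF-high 2 was high for the T cell marker Cd3d (39.7 TPM, others 3.74 to 8.36), the B cell marker Ms4a1 (16.4 TPM, others 10.2 to 11.9), the transferrin gene Trf (1356 TPM, others 824 to 862) and Stab1 (270.2 TPM, others 148 to 172), and low for Clec4a3 (25.8 TPM, others 45.2 to 47.7). AF-high 1 was high for the chemokine gene Ccl5 (75.8 TPM, others 5.59 to 20.97) and low for the glutamine synthetase gene Glul (427 TPM, others 597 to 649) and the endothelial marker Eng (16.8 TPM, others 30.9 to 33.8). AF-high 4 was high for Tgtp2 (18.2 TPM, others 7.63 to 9.14) and low for Adgre5 (12.1 TPM, others 20.9 to 24.2), and AF-high 5 was high for the decoy receptor gene Il1r2 (3.72 TPM, others 0.1001 to 1.036).

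Among treated libraries, PLX5622 4 was high for Csf1 (266 TPM, others 137 to 156), Tpp1 (209 TPM, others 172 to 177) and Jund (57.6 TPM, others 42.0 to 42.8). PLX5622 3 was low for Spi1 (334 TPM, others 403 to 411) and high for the astrocyte water channel gene Aqp4 (7.35 TPM, others 3.84 to 4.28). PLX5622 2 was low for Tyw5 (6.97 TPM, others 14.9 to 16.5) and high for Enpp2 (18.1 TPM, others 15.5 to 15.7), and PLX5622 1 was high for St8sia6 (56.6 TPM, others 35.4 to 37.6).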

How the results depend on the processing

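Counts are given as genes higher and lower over the 8 untreated libraries, then higher and lower in both gates; as reported these were 42 and 145, then 38 and 144. They were 1 and 9, then 1 and 9 with the 12 old libraries alone; 37 and 74, then 36 and 74 with median-of-ratios scaling; 63 and 59, then 59 and 56 with quantile normalization; 71 and 47, then 68 and 45 without numbered gene models. They were 142 and 470, then 109 and 418 with weights by group; 310 and 843, then 231 and 714 with weights by library; 18 and 48, then 17 and 48 without a trended prior. Without AF-high 2, AF-high 3 and AF-low 1 together they were 100 and 400, then 88 and 359, and after GC centring 20 and 63, then 20 and 62. Leaving out 1 library at a time gave 1 to 77 and 3 to 296, then 1 to 64 and 3 to 277. Other pseudocounts, filters, gate terms and a robust prior stayed within 1.5 times. The difference between the gates gave 0 genes, and 0 to 1 with a library left out (1 without AF-high 2 and 1 without AF-low 3). With the replicate number as a block, 0 genes were higher and 2 lower, then 0 and 2 in both gates: Mrc1 (adjusted p = 0.0327, limma) and Crybb1 (adjusted p = 0.0435, limma). Same-numbered treated and untreated libraries did not deviate together from their groups (7 pairs, r from -0.02 to 0.09). For same-numbered libraries of the 2 gates r ran from -0.08 to 0.05. With so few libraries per group, such values cannot exclude a shared mouse or sort day, so whether the numbers pair libraries is not known. The model treats the 8 untreated libraries as independent, which would not hold if a mouse gave cells to both gates. Of 3640 recomputed values of named genes, 0 changed direction with a call, 3087 kept their side of the threshold, 496 lost a call and 57 gained one. Only genes called as reported could lose a call, and the 3087 include genes that were never called. Among called genes, calls held in as few as 11 of 32 alternatives (Tlr4) and in as many as 32 of 32 (Mrc1). Of 204 recomputed list medians 47 changed sign. The causes of these changes were not tested. The read depth is unknown, and the gate of the treated libraries is not stated, so treatment and gate cannot be told apart where the gates differ.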

Other observations

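Some falls were in genes of membrane traffic, the cytoskeleton and metabolism, which no list covered; all genes in this and the next paragraph were picked after their values had been seen. Rab7, the GTPase of late endosomes, stood at 266 to 334 TPM with PLX5622 and 401 to 804 TPM in untreated old microglia (-1.0 ± 0.16, adjusted p = 0.0154, limma). Arf1, a GTPase of the Golgi, stood at 233 to 279 TPM against 323 to 464 TPM (-0.64 ± 0.11, adjusted p = 0.0183, limma). Ucp2, a mitochondrial carrier, stood at 386 to 531 TPM against 633 to 930 TPM (-0.74 ± 0.13, adjusted p = 0.0187, limma). All 3 were called under every scaling and after GC centring, and none overlapped between the groups. The actin crosslinker gene Actn4 (-0.89), the tubulin gene Tubb2b (-0.92), the GABA receptor gene Gabbr1 (-0.77), the reticulon gene Rtn4 (-0.74) and the pseudokinase gene Trib1 (-0.71) met the same criteria.

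Tnfsf8, the CD30 ligand, stood at 4.24, 3.12, 2.82 and 2.44 TPM with PLX5622 and at 0.159 to 1.998 TPM in untreated old microglia (1.31 ± 0.24, adjusted p = 0.0233, limma), with no overlap, and was called in 26 of 31 alternatives. Myc, a transcription factor of cell growth, stood at 79.4 to 94.7 TPM with PLX5622 against 111 to 149 TPM (-0.60 ± 0.11, adjusted p = 0.0233, limma). Saa3, an acute phase protein gene, stood at 405 to 554 TPM with PLX5622 and 642 to 1186 TPM in untreated old microglia (-0.76 ± 0.16, adjusted p = 0.0371, limma), and was called under 1 of the 3 other scalings. S1pr1, a receptor for sphingosine 1-phosphate, stood at 14.5 to 17.3 TPM with PLX5622, 18.8 to 27.4 TPM in untreated old microglia and 30.7 to 32.4 TPM in young microglia, so the treated level was the farthest from the young one (-0.49 ± 0.11, adjusted p = 0.0487, limma); it was called under 0 of the 3 other scalings.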
